A study of Mus musculus with 6 samples.

Results

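The genes described here encode the proteins of the cytosolic ribosome, measured by RNA sequencing in 6 libraries of neonatal mouse cardiomyocytes, per the labels, the muscle cells of the newborn heart. Members were the genes whose symbol is Rpl or Rps with a number and an optional a, x or l, together with Rplp0, Rplp1, Rplp2 and Rpsa; symbols of pseudogenes (-ps) and of the S6 kinases were left out. The rule found 82 genes among the 31115 rows of the table, 50 named for the large subunit and 32 for the small subunit, on 19 chromosomes. GENCODE M21 annotates 79 of them as protein-coding; Rpl6l and Rpl32l are processed pseudogenes in it and Rps4l a transcribed processed pseudogene.

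The groups are Ad-scramble (3 libraries) and Ad-SPTBN1 (3 libraries), and the genotype label of the second group is overexpression of βII spectrin, the protein of Sptbn1. All 6 are given as untreated cultures at day 2, with no other allele or agent stated. Neither the constructs nor the purity of the cells is described. Separate cultures are not stated for the replicates, and a p-value here reflects library-to-library spread that may be technical only. Values are FPKM, fragments scaled to gene length and library total, and differences are those of log2(FPKM + 1), Ad-SPTBN1 minus Ad-scramble.

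A cytosolic ribosome joins a small subunit, which decodes the messenger RNA, to a large subunit, which forms the peptide bond, and most proteins of the particle are needed in about equal number. Most of these genes are transcribed steadily, and in mammals their messenger RNAs begin with a run of pyrimidines, the 5′ terminal oligopyrimidine or TOP motif, through which mTOR signalling sets how strongly they are translated. In the heart, ribosome content rises when cardiomyocytes grow, and Rpl3l, a paralog of Rpl3, is known for its restriction to heart and skeletal muscle.

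Pyrimidine runs near annotated start sites are shown for the 4 members that differed between the groups. They are also shown for the paralogs Rps27l and Rps27, and for Rpl7a and Rpl34, which hold 2 of the longest runs. RefSeq promoter sequences (GRCm38.p6, 250 bases before to 50 after an annotated start) were found for 60 of the 82 members. Each sequence below is 30 bases around the longest run of C and T that begins within 30 bases of an annotated start. It is read 5′ to 3′ on the gene's strand, with that run in capitals. Relative to that start, the run began at -22 for Rps25 and Rps27l and at -11 for Rps16, and it ended before the start in these genes. It began at -2 for Rps21 and Rps27, -5 for Rplp2, -14 for Rpl7a and -17 for Rpl34. Whether a shown run begins the messenger RNA was not tested.

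Rps21 (chr2:180257365-180257394, plus strand): accgaggacccgCCCTCCTgcccaatagtg

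Rplp2 (chr7:141447636-141447665, plus strand): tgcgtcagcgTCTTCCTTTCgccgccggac

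Rps25 (chr9:44407684-44407713, plus strand): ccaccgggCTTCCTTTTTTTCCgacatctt

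Rps16 (chr7:28350665-28350694, plus strand): gccgtaaagcccgCTTCTgtcgtgacgtag

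Rps27l (chr9:66946053-66946082, plus strand): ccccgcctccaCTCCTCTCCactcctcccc

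Rps27 (chr3:90213632-90213661, minus strand): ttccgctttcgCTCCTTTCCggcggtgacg

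Rpl7a (chr2:26910788-26910817, plus strand): cacaaTTCCCTCTTCTTTCTTTCTCCagca

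Rpl34 (chr3:130730330-130730359, minus strand): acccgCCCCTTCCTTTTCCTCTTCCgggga

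A run of at least 8 pyrimidines was found at 42 of the 60 matched members, or 70.0%, and at 26.7% of the 27025 genes in the promoter table, counting a gene once if any of its annotated starts had the run. Among the 4 members that differed, Rps25 and Rplp2 had runs of 14 and 10 bases, and Rps21 and Rps16 runs of 7 and 5. The median log2 difference was -0.02 in the 42 members with a run of at least 8 bases and 0.01 in the 17 tested members without one. Of the 4 that differed, all lower in the Ad-SPTBN1 libraries, 2 were among the 42 and 2 among the 17. These counts are too small to set against the background of 5.50% of all tested genes lower. The letters CGGAAG, searched on both strands of the 300 bases, occurred in 68.3% of the matched members and 18.8% of all genes in that table, and CTTTCC in 51.7% and 29.3%; the latter word can lie within a pyrimidine run. TATAAA occurred in 11.7% of the matched members and 15.7% of all genes.

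Sptbn1 went against the labels: its level was 48.3 to 50.8 FPKM under the Ad-scramble label but 15.7 to 16.5 FPKM under the Ad-SPTBN1 label, so directions below are stated for the labels alone. Recovered reads in genes numbered 18775258 to 19638647 per library, of which ribosomal protein members took 3.39% to 3.59%. The culture held other cells than the labels name. The summed level of 15 cardiomyocyte markers was 80.8 to 87.3 FPKM in the Ad-scramble libraries and 131.9 to 137.6 in the Ad-SPTBN1 libraries. Of 10 tested, 6 were called higher, or 60%, against 5.54% of all tested genes. The 13 cardiac fibroblast markers summed to 4302 to 4633 and 4531 to 4755 FPKM. Of these, 8 were called lower, or 61.5%, against 5.50% of all tested genes, and 1 higher, or 7.69%. Col1a1, not called, weighs most in that sum, with means of 2078 and 2402 FPKM, while 11 of the 13 differences were below 0. The 9 smooth muscle and pericyte markers summed to 1860 to 1881 and 1813 to 1841 FPKM, with 3 called lower, or 33.3%, and 1 higher, or 11.1%. Acta2, not called, makes up most of that sum, with means of 1629 and 1604 FPKM, and 8 of the 9 differences were below 0. Endothelial markers (8 tested) summed to 124.8 to 133.9 and 131.9 to 138.5 FPKM. Macrophage markers (3 of 6 tested) summed to 12.99 to 13.2 and 12.2 to 13.6 FPKM. In each of these 2 lists 0 were called, which says little for lists this short. No listed marker was at 0 in every library. A list of 5 rows for ribosomal RNA also held Lars2, a gene of a mitochondrial tRNA synthetase. In it 3 of the 5 were called higher, or 60% against 5.54% of all tested genes: CT010467.1, Lars2 and Gm15564. The mitochondrial ribosomal RNAs mt-Rnr1 and mt-Rnr2 were not called, at differences of 0.01 and -0.07 on the log2 scale. CT010467.1 measured 71.5 to 79.4 FPKM in the Ad-scramble libraries and 356.4 to 439.8 in the Ad-SPTBN1 libraries. The part of these shifts in the results below was not tested, and in such bulk samples fewer cells of a type cannot be told apart from less RNA per cell.

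As a group, the ribosomal protein genes hardly differed between the libraries labelled Ad-scramble and those labelled Ad-SPTBN1. Of the 81 members tested, 4 were lower in the Ad-SPTBN1 libraries and 0 higher at an adjusted p under 0.05 (limma with Benjamini-Hochberg adjustment over all 12608 tested genes). The background was 5.50% of all tested genes lower and 5.54% higher, against 4.94% and 0% of the members, so the share of members that fell was close to the background. At an unadjusted p under 0.05, limma gave 3 members higher, or 3.70% against a background of 13.6%, and 11 lower, or 13.6% against 13.3%. Voom on the recovered reads called 3 higher, or 3.70% against 8.63%, and 9 lower, or 11.1% against 8.40%. The median log2 difference of the tested members was -0.01, against 0.00 for all tested genes, and its sign was not the same under every scaling. Differences were within 0.1 of 0 on the log2 scale for 62 members, or 76.5%, against 58.2% of all tested genes. The 95% interval of the difference lay wholly within 0.2 of 0 for 56 of the 81 members, and its median half-width was 0.10.

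**Figure D1:**
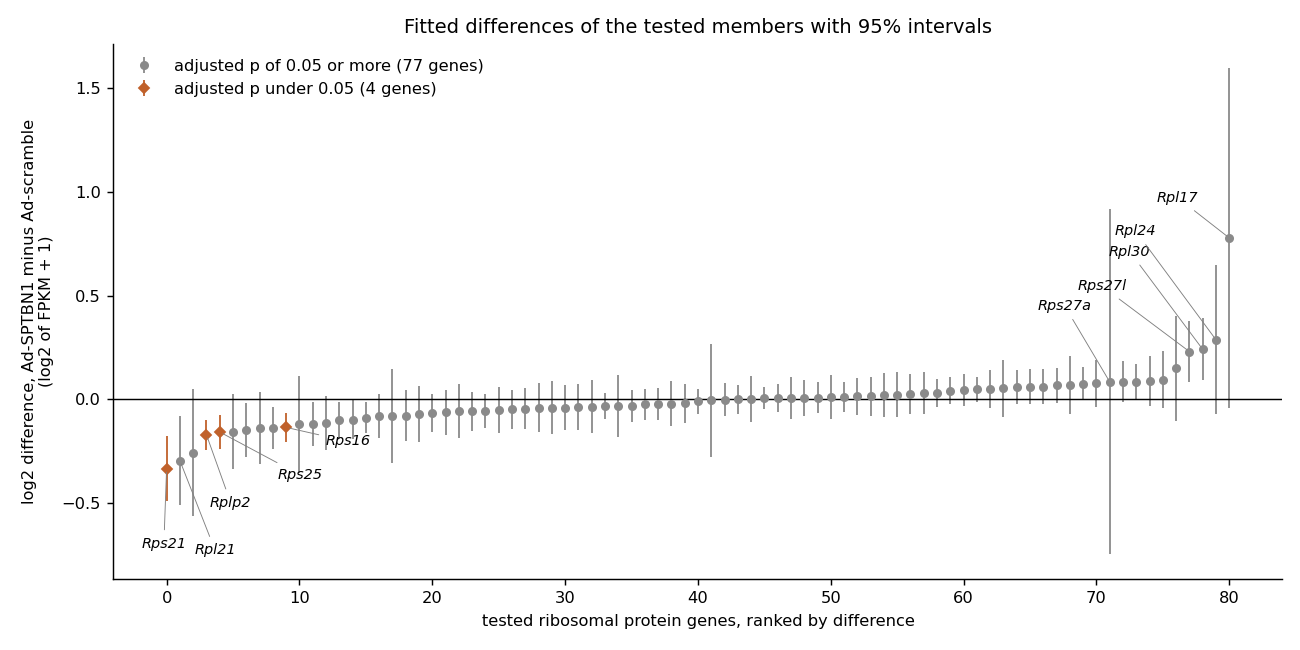
Fitted log2 difference (Ad-SPTBN1 minus Ad-scramble, log2 of FPKM + 1) of each of the 81 tested members, ranked, with its 95% interval; diamonds mark the 4 members with an adjusted p under 0.05. Most points lie within 0.1 of 0, and the widest intervals are those of Rps27a, Rpl17, Rpl24, Rpl32l and Rpl7a.

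The share called was also set beside that of other abundant genes. Among the 61 members at or above the lower quartile of member levels, 124.7 FPKM, 3 were called, or 4.92%. Among the 275 other tested genes at or above that level, 78 were called, or 28.4%, with 27 higher and 51 lower. This split was chosen after the values were seen, and no test of it was made. Counting only whether the values of the groups overlapped, 5 members were higher in each Ad-SPTBN1 library than in any Ad-scramble library, which is 6.17% against a background of 16.5%, and 11 were lower, which is 13.6% against 15.8%.

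The summed level of the 82 members was 21404, 22690 and 22331 FPKM for Ad-scramble and 22650, 21662 and 21179 FPKM for Ad-SPTBN1, in replicate order. The groups overlapped, with a library of each near the top and near the bottom of the range. The mean was 22142 ± 664 FPKM against 21830 ± 749 (SD, n = 3; exact two-sided permutation p = 0.7, smallest possible 0.1). The log2 ratio of the means was -0.02, and 0.00 without Ad-SPTBN1 replicate 3.

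Of the small subunit proteins, 3 of 32 fell in the libraries labelled Ad-SPTBN1, or 9.38% against the background of 5.50%, and of the large subunit proteins 1 of 49, or 2.04%. Nothing is read from counts this small about either subunit. Rps21, a protein of the small subunit's body (ENSMUSG00000039001, GRCm38 chromosome 2, 180257377 to 180258445, plus strand), measured 304.3, 282.1 and 317.3 FPKM in the Ad-scramble libraries and 250.2, 250.5 and 216.5 FPKM in the Ad-SPTBN1 libraries. The groups stood apart, and Ad-SPTBN1 replicate 3 was the lowest of the 6. The difference was -0.33 ± 0.07 on the log2 scale (SE, n = 3 per group, limma adjusted p = 0.022), a level of 79.4% of that in the Ad-scramble libraries. It was the lowest log2 difference among the tested members and rests on 3238 to 4762 reads per library. Gm19810, an annotated processed pseudogene with 20.3% of its 50-base words in Rps21, measured 72.1, 61.4 and 72.9 FPKM and then 37.6, 42.3 and 34.1 FPKM, a difference of -0.84 ± 0.09 (limma adjusted p = 0.0028). With the reads of its listed copies added to Rps21, the difference was -0.36 ± 0.07 (limma adjusted p = 0.015).

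Rps16, which lies near the peptidyl-tRNA site of the small subunit (ENSMUSG00000037563, chromosome 7, 28350652 to 28353155, plus strand), measured 501.8, 532.0 and 521.3 FPKM in the Ad-scramble libraries and 470.3, 482.4 and 462.6 FPKM in the Ad-SPTBN1 libraries. Its groups did not overlap, and the difference was -0.14 ± 0.03 (SE, limma adjusted p = 0.032). Under quantile normalization it was -0.08 (limma adjusted p = 0.151). Rps25, a small subunit protein needed by several viral and cellular internal ribosome entry sites (ENSMUSG00000009927, chromosome 9, 44407139 to 44410427, plus strand), measured 117.3, 123.2 and 127.5 FPKM and then 112.5, 109.2 and 107.8 FPKM. The groups again did not overlap, at a difference of -0.16 ± 0.04 (SE, limma adjusted p = 0.034). Exons of other genes lie opposite 24.8% of the exon bases of Rps25, those of Trappc4 and Ccdc84, and the use of strand in counting is not given in the sources used here. The calls of Rps16 and Rps25 were lost in 5 of the 6 fits that left out a library, all but that without Ad-scramble replicate 1, and that of Rps21 without Ad-scramble replicate 1 or 3.

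The 1 large subunit protein that fell was Rplp2, a phosphoprotein of the stalk that recruits translation factors (ENSMUSG00000025508, chromosome 7, 141447370 to 141451585, plus strand). Its level was 275.4, 295.6 and 285.0 FPKM in the Ad-scramble libraries and 253.5, 250.2 and 256.2 FPKM in the Ad-SPTBN1 libraries. The groups did not overlap, and the difference was -0.17 ± 0.03 (SE, limma adjusted p = 0.016), a call lost without Ad-SPTBN1 replicate 1 or 2. Its partners in the stalk did not pass the test. Rplp1, which pairs with Rplp2, measured 2052, 2259 and 2068 FPKM and then 2156, 2044 and 2003 FPKM, a difference of -0.04 with a 95% interval of -0.15 to 0.07. Rplp0, the base of the stalk, measured 578.0, 626.2 and 612.3 FPKM and then 598.6, 590.2 and 556.1 FPKM, a difference of -0.06 with an interval of -0.15 to 0.04. The groups overlapped for both. All 4 calls ended with no minimum level, which tests every row, and with the replicate number as a block, where the limma adjusted p of the 4 was 0.052 to 0.090; without a trend in the prior variance only that of Rps21 remained.

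**Figure D2:**
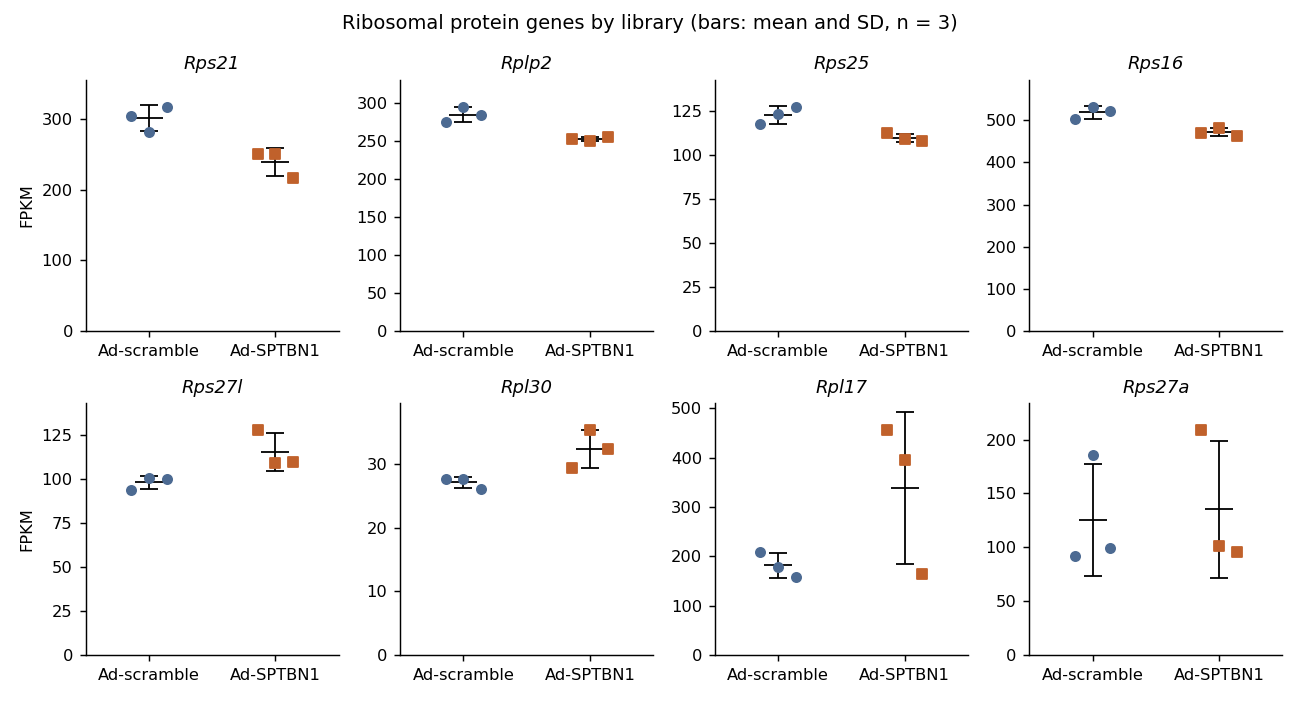
FPKM of 8 members in each of the 3 libraries labelled Ad-scramble (circles) and the 3 labelled Ad-SPTBN1 (squares), left to right in replicate order, with mean and SD bars; each axis starts at 0. The groups do not overlap for Rps21, Rplp2, Rps25, Rps16, Rps27l and Rpl30. Rpl17 lies at 455.0 and 395.4 FPKM in Ad-SPTBN1 replicates 1 and 2 and at 156.9 to 208.7 in the others. Rps27a lies at 185.2 in Ad-scramble replicate 2, at 208.5 in Ad-SPTBN1 replicate 1 and at 91.9 to 101.2 in the others.

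Among the members with a positive difference, Rps27l and Rpl30 came nearest to a call. Rps27l, a paralog of Rps27 that p53 is known to induce, measured 93.8, 100.5 and 99.9 FPKM in the Ad-scramble libraries and 127.7, 109.2 and 109.4 FPKM in the Ad-SPTBN1 libraries. The groups did not overlap, at a difference of 0.23 ± 0.06 (SE, limma adjusted p = 0.060). Rps27 itself measured 257.7, 263.5 and 260.9 FPKM and then 283.6, 235.1 and 206.3 FPKM, and its groups overlapped. Rpl30, picked once its values were known, measured 27.7, 27.6 and 26.1 FPKM and then 29.3, 35.3 and 32.3 FPKM (0.24 ± 0.06, limma adjusted p = 0.054). Rps27l passed in 4 and Rpl30 in 3 of 19 alternative fits. Among these, both passed with a minimum mean of 5 FPKM, at a limma adjusted p of 0.038 for Rps27l and 0.034 for Rpl30. Rps27l also passed when values were rescaled to TPM (limma adjusted p = 0.046) or quantile normalized (0.045). Adding the reads of its copies, of which the processed pseudogene Gm12191 alone measured 266.4 to 317.0 FPKM, took the difference of Rpl30 to 0.09 ± 0.04 (limma adjusted p = 0.223).

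The proteins of Rpl5, Rpl11, Rpl23 and Rps7 are known to bind the ubiquitin ligase Mdm2 and so to restrain the breakdown of p53 when ribosome assembly is disturbed. Rpl5 measured 158.8, 162.0 and 166.1 FPKM in the Ad-scramble libraries and 180.0, 166.1 and 170.7 FPKM in the Ad-SPTBN1 libraries. Its groups did not overlap, by a narrow margin, and the difference of 0.09 ± 0.04 did not pass (limma adjusted p = 0.176). The other three did not pass either: the difference was 0.09 for Rpl23 (95% interval -0.01 to 0.18), 0.05 for Rps7 (-0.04 to 0.14) and -0.02 for Rpl11 (-0.10 to 0.05).

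The paralogs Rpl3l and Rpl39l, known from few tissues, were at low levels. Rpl3l, the paralog of heart and skeletal muscle, was listed at 0.064, 0 and 0.033 FPKM in the Ad-scramble libraries and 0.032, 0.097 and 0.066 FPKM in the Ad-SPTBN1 libraries. That is 0 to 3 reads per library, below the level that was tested, and no difference was detectable at this depth. Rpl3, its general counterpart, measured 200.4, 211.5 and 219.2 FPKM and then 223.2, 218.5 and 216.5 FPKM (0.06, interval -0.02 to 0.15). Rpl39l, a paralog known from the testis, measured 1.62 to 2.29 FPKM in the Ad-scramble libraries and 1.70 to 1.97 in the Ad-SPTBN1 libraries, against 186.7 to 203.0 and 198.3 to 223.6 FPKM for Rpl39 at the peptide exit tunnel. Rpl10l was not among the rows. Rps4l measured 50.4, 52.8 and 53.5 FPKM and then 48.2, 49.1 and 49.9 FPKM; its groups did not overlap, but its difference of -0.09 ± 0.03 did not pass (limma adjusted p = 0.131). Rps4x, the X-linked gene of the same protein family, was among the steadiest, at 396.0, 400.5 and 401.6 FPKM and then 401.4, 395.8 and 405.1 FPKM, a difference of 0.01 with an interval of -0.05 to 0.06. Rpl22 measured 84.8 to 89.6 FPKM over the 6 libraries and Rpl10, which completes the late large subunit, 340.3 to 358.2 FPKM, and neither passed.

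The 10 members with the highest deposited FPKM were Rplp1, Rps15, Rpl36, Rpl41, Rpl8, Rplp0, Rpl4, Rps14, Rpl32 and Rpl19, and none of them passed the test. Rps15, a protein of the small subunit's head, came nearest, at 876.3, 960.2 and 981.5 FPKM in the Ad-scramble libraries and 866.4, 839.5 and 854.0 FPKM in the Ad-SPTBN1 libraries. Its groups did not overlap, at a difference of -0.14 ± 0.04 (SE, limma adjusted p = 0.090). Rpl41, whose protein is the smallest of the ribosome, measured 667.7 to 723.5 FPKM and then 687.0 to 691.2, a difference of 0.00 with an interval of -0.08 to 0.08. The lowest members above 0, as deposited, were Rpl3l, Rpl24 and the pseudogene Rpl32l. Rpl24 measured 1.01 to 1.47 and then 1.42 to 2.50 FPKM, on 19 to 49 reads. Rpl32l measured 1.72 to 2.34 and then 1.06 to 1.71 FPKM, on 8 to 17 reads. Exons of Gm28037 on the same strand cover 47.0% of the exon bases of Rpl24, and 51.8% of its words occur in other genes. With copies summed, its mean was 8.48 FPKM in the Ad-scramble and 9.36 in the Ad-SPTBN1 libraries, and 82.6% of those reads lay in the copies. How far shared reads lower the listed level of Rpl24 was not tested.

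The members shared an order of libraries within each group. Ad-scramble replicate 1 was the lowest of its group for 54 of the 81 tested members, or 66.7%, against 30.9% of all tested genes. Ad-SPTBN1 replicate 1 was the highest of its group for 59 members, or 72.8%, against 35.1% of all tested genes. The median deviation of the members from their own means over the 6 libraries was -0.03, 0.04 and 0.02 for Ad-scramble and 0.03, -0.02 and -0.03 for Ad-SPTBN1, in replicate order and on the log2 scale. Each group thus held libraries with members above and below their means. The labels give no batch, and what set this order was not tested. Within groups the median coefficient of variation of a member was 4.43% in the Ad-scramble and 3.28% in the Ad-SPTBN1 libraries, and it exceeded 25% in either group for 3 members, Rpl17, Rps27a and Rpl24.

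**Figure D3:**
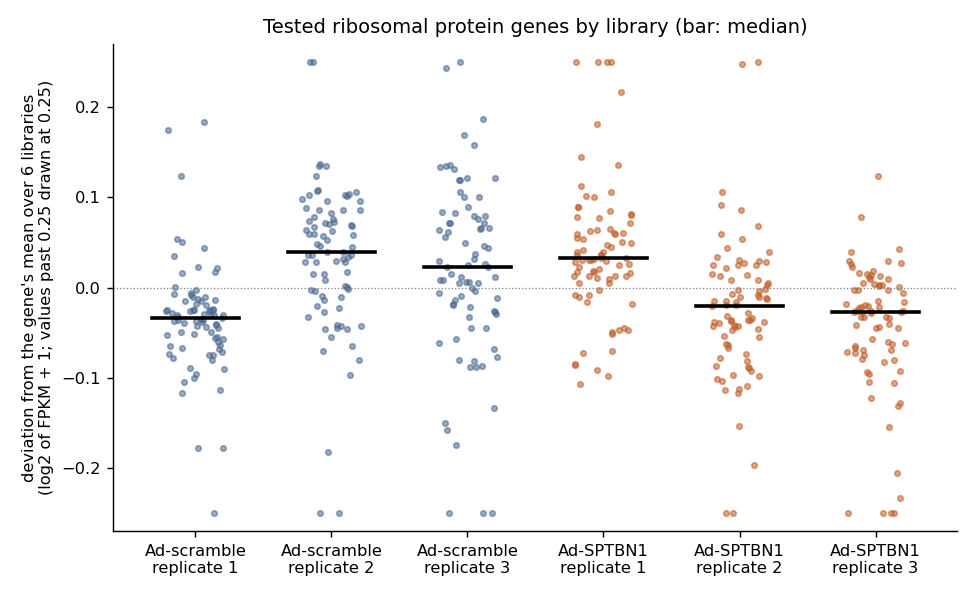
Deviation of each of the 81 tested members (points) from its mean over the 6 libraries, on the log2(FPKM + 1) scale, by library, with the median as a bar; points past 0.25 are drawn at 0.25. The medians lie at -0.03, 0.04 and 0.02 in the Ad-scramble libraries and at 0.03, -0.02 and -0.03 in the Ad-SPTBN1 libraries, so the order of the libraries does not follow the groups.

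The ratio of the subunits' summed levels did follow the groups by a small amount. Summed FPKM of large subunit members over that of small subunit members was 1.63, 1.60 and 1.63 in the Ad-scramble libraries and 1.66, 1.68 and 1.68 in the Ad-SPTBN1 libraries. The groups did not overlap, and the exact two-sided permutation p was 0.1, the smallest that 3 against 3 can give. Without Rpl17 and Rps27a the ratio was 1.63, 1.62 and 1.63 and then 1.65, 1.66 and 1.68, and with copies summed 1.60, 1.58 and 1.60 and then 1.62, 1.63 and 1.63. The medians of the single members' log2 differences were 0.00 for the large and -0.02 for the small subunit. The small subunit sum had means of 8444 and 8163 FPKM. It includes Rps15, with means of 939.4 and 853.3 FPKM, Rps21, with 301.3 and 239.1, and Rps16, with 518.4 and 471.8. Of the 32 small subunit members, 15 differences were above 0 and 17 below. The ratio without Rps15, Rps21 and Rps16 was not computed. This ratio was chosen after the values were seen.

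Many members have near-identical copies elsewhere in the genome, and reads may be shared among them in a way that is not given in the sources used here. In GENCODE M21 transcripts, a median of 23.9% of a member's 50-base words also occurred in another gene, and 71 members had 380 listed copies in the table with at least 20% of their words in the member. Of 193 tested copies, 8 were called higher and 9 lower, or 4.15% and 4.66% against the background of 5.54% and 5.50%. The copies summed to 9211, 9509 and 9555 FPKM in the Ad-scramble libraries and 9185, 8786 and 9115 FPKM in the Ad-SPTBN1 libraries, and the groups did not overlap (exact two-sided permutation p = 0.1, the smallest possible). Without the single copy Rpl17-ps10 they overlapped, at 8824, 9041 and 9011 FPKM and then 9036, 8598 and 8651 FPKM (exact two-sided permutation p = 0.3). The copies' reads overlapped too, at 102219 to 102731 and 97815 to 102282 per library (exact two-sided permutation p = 0.2).

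Rpl17 and Rps27a, both named after their values were seen, varied most. Rpl17, at the exit of the peptide tunnel, measured 208.7, 178.6 and 156.9 FPKM in the Ad-scramble libraries and 455.0, 395.4 and 164.8 FPKM in the Ad-SPTBN1 libraries, where replicates 1 and 2 stood above all others and replicate 3 did not. Its processed pseudogene Rpl17-ps10 measured 387.4, 468.2 and 544.0 FPKM and then 149.2, 187.9 and 463.8 FPKM, low in the same libraries in which Rpl17 was high. Summed with its copies, Rpl17 differed by 0.19 ± 0.11 in place of 0.78 ± 0.35, and neither value passed (limma adjusted p = 0.306 and 0.207). Rpl17 passed in 2 of 19 alternative fits, at 1.23 without Ad-SPTBN1 replicate 3 (limma adjusted p = 0.007) and at 0.78 with voom on the recovered reads (limma-voom adjusted p = 0.016). Rps27a, which is made as a fusion with ubiquitin, measured 91.9, 185.2 and 99.4 FPKM and then 208.5, 101.2 and 95.6 FPKM; 1 library of each group was high, and copies changed the difference from 0.08 to 0.06. With copies summed, 6 members were lower, against a background of 5.82% of 12415 tested rows: Rpl21 and Rpl14, named after their values were seen, passed beside the 4 described above. Rpl14 measured 282.6 ± 14.9 and 263.1 ± 1.89 FPKM (SD, n = 3), and its pseudogene Rpl14-ps1 189.2 ± 12.8 and 156.4 ± 10.1 FPKM.

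The order of members by level depends on the gene length behind FPKM. The exon union of a member spanned 383 to 6270 bases, with a median of 1737, while its principal transcript had a median of 875 bases. Among the 78 protein-coding members with a mean of at least 1 FPKM, levels had an SD of 1.81 on the log2 scale as deposited, 1.80 per length of the principal transcript and 1.52 when copies were also summed. The median rose from 220.1 to 496.5 and 560.1 in these steps. Rps18 moved from 32.6 to 35.7 FPKM over the libraries to 444.4 when both were applied, and its copy Gm11361 was listed at 250.2 to 289.3 FPKM. Members below 100 on the FPKM scale fell in number from 13 to 6, and Rpl39l, which has no listed copy, stayed at 1.98.

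**Figure D4:**
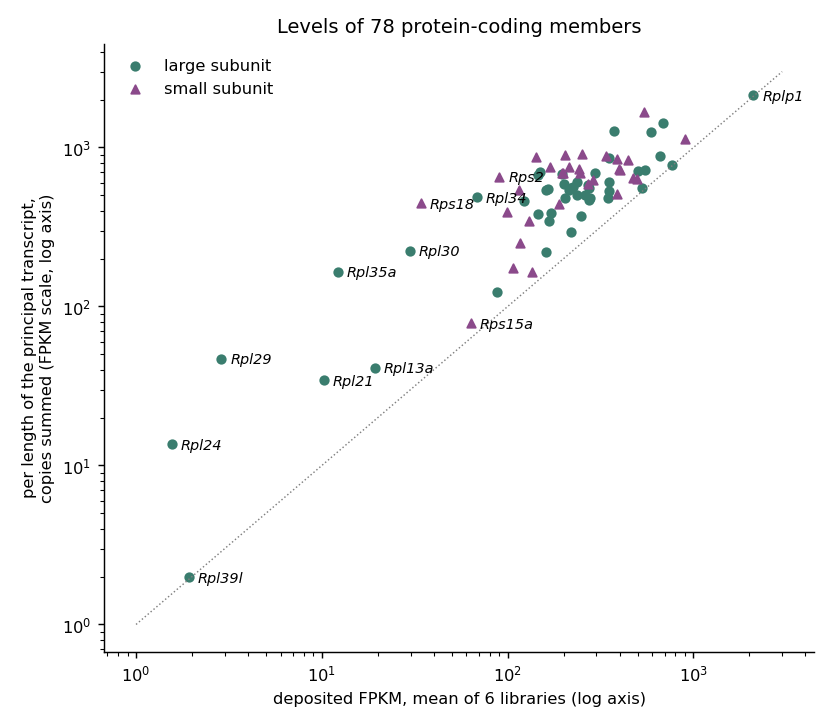
Level of the 78 protein-coding members with a mean of at least 1 FPKM: deposited FPKM, mean of 6 libraries (horizontal, log axis), against the level per length of the principal transcript with copies summed (vertical, log axis); the dotted line marks equal values. Members far left, such as Rps18, Rpl30 and Rpl35a, move toward the others, and Rpl39l stays low.

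Genes that assemble ribosomes were also read from the same fit. Of 59 tested ribosome biogenesis factors, 14 were called higher and 0 lower (limma), which is 23.7% against the background of 5.54% higher; at their median the log2 difference was 0.10, and 54 of 59 were above 0. Rrp12, known in Saccharomyces cerevisiae for export of both subunits, rose from 19.4 ± 0.370 to 23.2 ± 0.365 FPKM, Rrp1b from 3.57 ± 0.0702 to 4.86 ± 0.179, Tcof1, which acts with RNA polymerase I, from 12.4 ± 0.203 to 14.4 ± 0.597, and Noc2l from 36.6 ± 1.76 to 41.7 ± 0.656 (SD, n = 3). Their limma adjusted p ran from 0.005 to 0.026. Of the 14 genes of RNA polymerase I and its factors, 0 were called, with 12 of 14 differences above 0, and at an unadjusted p under 0.05 limma gave 2 higher and 1 lower; voom on the recovered reads called 1 higher and 0 lower. Its most abundant genes were Ubtf, a DNA-binding factor of ribosomal RNA genes, at 27.9 ± 0.642 and 27.3 ± 0.347 FPKM, and Znrd1, at 19.8 ± 0.812 and 20.3 ± 1.78.

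Factors that work with the finished ribosome were described in the same way. Of 34 tested initiation factors, 5 rose and 1 fell, or 14.7% and 2.94% against the background of 5.54% and 5.50%. Eif2s3x, a subunit of the factor that carries the initiator tRNA, rose from 31.0 ± 0.176 to 37.4 ± 1.21 FPKM, and Eif4g2, a scaffold used without the cap-binding factor, fell from 120.9 ± 3.02 to 108.3 ± 2.23 FPKM; Eif2b1 and Eif3j1 rose by 0.16 and 0.21 on the log2 scale. Of 11 elongation and termination factors, 2 rose, or 18.2%: Eef2, which moves the ribosome along the message, from 899.9 ± 24.9 to 994.2 ± 16.9 FPKM, and Eef1e1, a scaffold of the tRNA synthetase complex despite its symbol, from 8.31 ± 0.0335 to 10.6 ± 0.324. Eef2 and the poly(A)-binding protein Pabpc1, from 164.5 ± 2.11 to 177.7 ± 2.88 FPKM, were the 2 called higher among 17 other genes with TOP messenger RNAs, or 11.8%, of which 0 were called lower.

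Of 22 tested TOP and mTOR regulators, 2 rose and 1 fell, or 9.09% and 4.55%, near the background of 5.54% and 5.50% for a list of this size. Deptor, an inhibitor that binds mTOR, fell from 1.63 ± 0.128 to 1.05 ± 0.0826 FPKM, while Eif4ebp2, a translational repressor that mTOR phosphorylates, rose from 12.9 ± 0.367 to 14.7 ± 0.386 and Tsc1 from 3.39 ± 0.160 to 4.12 ± 0.213. Of 11 genes for import and chaperoning of ribosomal proteins, 2 rose, or 18.2%: the importin Ipo5, from 52.6 ± 0.154 to 58.7 ± 0.995 FPKM, and Grwd1, from 22.8 ± 0.926 to 26.2 ± 1.07. Of the 14 tested genes of ribosome quality control 0 were called, and at an unadjusted p under 0.05 limma gave 1 higher and 0 lower; voom called 0 higher and 0 lower. Its most abundant genes were Tcf25, at 58.9 ± 0.812 and 57.8 ± 1.59 FPKM, and Edf1, a sensor of collided ribosomes, at 48.3 ± 2.51 and 46.1 ± 1.59. Of 7 ribosomal protein genes outside the naming rule, 1 was called higher, or 14.3% against 5.54%, and 0 lower. This was Rpl7l1, a paralog of Rpl7, which rose from 37.2 ± 2.03 to 42.7 ± 1.96 FPKM (limma adjusted p = 0.047). Of the 7 differences 6 were above 0. At an unadjusted p under 0.05 limma gave 3 higher and 0 lower, and voom called 2 higher and 0 lower. Rps3a1, Fau and Rack1, of the small subunit and named after their values were seen, did not pass. Over the 6 libraries Rps3a1 measured 837.4 to 899.6 and Fau 555.4 to 617.6 FPKM. Rack1 measured 202.4, 209.0 and 203.9 FPKM and then 227.6, 223.1 and 211.6 FPKM, without overlap (limma adjusted p = 0.087).

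**Figure D5:**
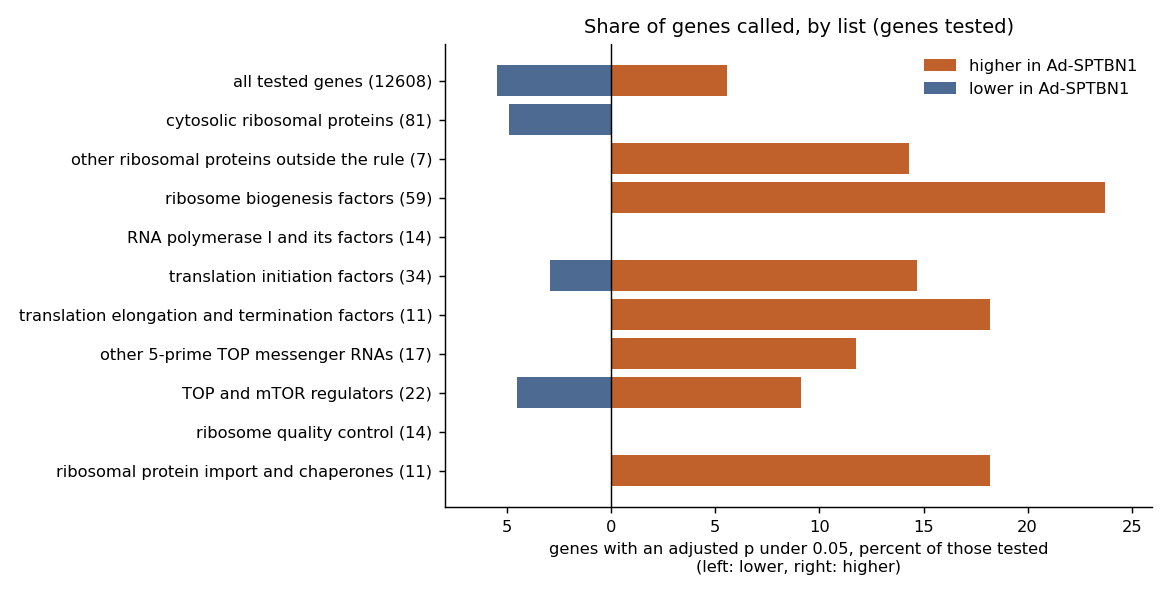
Share of tested genes with an adjusted p under 0.05 in each list, lower in the libraries labelled Ad-SPTBN1 to the left and higher to the right, with the number tested in parentheses. The ribosomal proteins have 4.94% lower and 0% higher, all tested genes 5.50% and 5.54%, and ribosome biogenesis factors 0% and 23.7%.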

How the data were processed

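RNA of 6 libraries was sequenced, 3 per group. Per the labels' protocols, TRIzol RNA went into NEBNext Ultra libraries. The authors deposited 1 table of FPKM values for 31115 genes; GRCm38 and mm10 are named per the submitters' processing notes, and for the aligner, counter, annotation, strand setting and treatment of shared reads, the sources used here state nothing. The numeric column names equal sample numbers in the labels, and 0 other sample columns were present.

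The test was limma (3.58.1, R 4.3.3), two-sided, on log2(FPKM + 1), and its prior variance followed a trend. The 12608 genes averaging 1 FPKM or more were tested, p was adjusted over all of them by Benjamini-Hochberg, and an adjusted p under 0.05 is a call. The log2 scale with a pseudocount understates changes of low genes. Summed levels were compared with an exact permutation test (20 arrangements). Members, lists and named genes were chosen with earlier results of these data known, so their counts are descriptions. Named were the 10 highest members, those called, listed paralogs, the Mdm2 binders and stalk, and the 3 lowest above 0. Of each of 15 lists up to 4 called genes with the smallest p were named, or else the 2 most abundant. Cell type markers are given as list sums and counts only, apart from Col1a1 and Acta2. These 2 and all other names were chosen after their values were seen.

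Whole reads were recovered from FPKM and GENCODE M21 exon lengths: 95.4% to 95.6% of values above 0 were whole within 0.1 reads. They numbered 18775258 to 19638647 per library in genes, and the totals behind the FPKM scaling were 18222992 to 19062957. In every library the reads in genes exceeded that total, as with 19512440 against 18940381 for Ad-scramble replicate 1. Some reads may thus count in more than 1 gene, or some lengths may differ from those the authors used, which was not tested. Shares of reads are of the reads in genes. Intervals and read numbers cover these libraries only. Within groups, the chi-square per gene, 1 under counting noise alone, was 2.74 to 4.09, so no libraries were merged. Copies of a member were rows sharing at least 20% of their 50-base words with it on the same strand. Protein sequences are not used here. Alternatives were other pseudocounts (0.1, 5), minimums (5 FPKM, none), scalings, moderation, sample weights, a block by replicate number and fits without 1 library each; voom on the recovered reads, summed copies and principal transcript lengths were added after the data were seen.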

Additional observations from a re-analysis of the deposited data

How the results depend on the processing

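The count of members lower, 4, was also reached with the other pseudocounts, a minimum of 5 FPKM, median ratio scaling, TPM, robust moderation and library weights. It was 0 with no minimum (665 genes called in all), 1 without a trend and 0 with the replicate block (730 genes in all), and it was 1 to 4 when 1 library was left out, with 622 to 864 genes called in all. Members higher numbered 2 with the minimum of 5 FPKM, 1 with TPM, 1 with quantile normalization and 0 to 1 when 1 library was left out. Voom on the recovered reads called 3 members higher, 9 lower and 2145 genes in all. With no minimum more genes were tested, and with a library left out there were fewer samples. The cause of these changes and of the others was not tested. The replicate numbers share only a number: correlations of same-numbered libraries' deviations were -0.03 to 0.01, and not every library correlated best with its own number.

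Directions were followed for the members named with values, and turned only for members that no fit called. Members outside that list turned too, such as Rpl29 from 0.15 to -0.20 and Rps2 from 0.094 to -0.0054 with copies summed. By setting, the log2 difference became -0.00052 for Rps14 with median ratio scaling; 0.0049 for Rpl41 with TPM; 0.0084 for Rpl36, 0.023 for Rpl41, 0.019 for Rpl8, 0.049 for Rpl32 and 0.041 for Rpl19 with quantile normalization; 0.0039 for Rpl41 with library weights and 0.00028 with voom; and -0.011 for Rps4x with copies summed. With 1 library left out it ran from -0.070 to 0.0048 for Rplp1, -0.024 to 0.034 for Rpl41, -0.039 to 0.053 for Rps14, -0.037 to 0.015 for Rpl32, -0.078 to 0.0086 for Rpl19, -0.0015 to 0.038 for Rpl22, -0.0027 to 0.014 for Rps4x, -0.049 to 0.0029 for Rpl11, -0.27 to 0.40 for Rps27a and -0.048 to 0.00091 for the summed level. Rpl3l, Rpl24, Rpl29, Rpl32l and Rpl39l have too few reads for small differences to be seen.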
